A study of Mus musculus with 25 samples.

Results

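The genes described here are 10 genes of the amino acid and unfolded protein stress responses, Atf4, Ddit3, Trib3, Asns, Chac1, Sesn2, Ddit4, Hspa5, Xbp1 and Dnajb9, measured in pgWAT, that is perigonadal fat, which in male mice surrounds the epididymis. They were chosen by the gene name that the array gives to a probe, which returned 18 probes out of 39619 tested, and the brightest probe of each gene stood for it, so that 10 of 25908 tested genes are described. All 10 genes passed the filter on dim spots, and all 18 probes were well above background on 25 of 25 arrays. Each gene is reported as a log2 intensity after quantile normalisation. A value of 1 on this scale is a doubling of brightness, and levels of different probes are not compared with each other.

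Tissue came from C57BL6/J male mice on a regular diet that were fasted for 24 h and then refed for 18 h with food and 20% glucose in the drinking water, which favours the activity of the glucose-sensing transcription factor ChREBP. All 4 groups received this treatment, so no fasted or untreated mice are part of the comparisons. ChREBPβ KO mice (n = 6) carry a whole-body deletion of the exon of Mlxipl that starts the ChREBPβ isoform and were compared with WT mice of the same line (n = 7). Total ChREBP KO mice (n = 5) are Mlxipl-null and lack the α and β isoforms in every tissue, and were compared with WT mice of that line (n = 7). The ChREBPβ deletion was bred as more than 1 founder line, and the labels give neither the founder, the litter nor the age of a mouse. Each array is a separate labelled sample. Each of the 4 wash batches held all 4 groups. In most of them total ChREBP KO was a single array, so differences within a wash batch describe few arrays.

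The amino acid response starts when amino acid supply falls, and the unfolded protein response starts when misfolded proteins accumulate in the endoplasmic reticulum. Both can act through phosphorylation of the translation factor eIF2α, which lowers protein synthesis in general but raises translation of ATF4, a transcription factor that switches on amino acid synthesis, amino acid import and redox genes. The unfolded protein response has further branches, through IRE1 and XBP1 and through ATF6, that raise chaperones of the endoplasmic reticulum such as BiP, the product of Hspa5. Because ATF4 is set largely at translation and XBP1 by splicing of its mRNA, a level of either transcript does not measure the activity of the protein, and neither step was measured here.

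Median raw intensity was 84 to 127 over the arrays, against a local background of 15 to 22. Mlxipl, the targeted gene, was lower by 1.75 on the log2 scale in total ChREBP KO than in its WT (log2 difference -1.75, SE 0.15, limma adjusted p 3.17e-08). In ChREBPβ KO its log2 difference was -0.73 (SE 0.14, adjusted p 0.140, unadjusted p 3.3e-05), which did not pass the threshold. The Mlxipl probe stayed bright in both knockouts, with a mean log2 level of 14.21 in total ChREBP KO and 14.36 in ChREBPβ KO. The means were 15.96 in total ChREBP WT and 15.08 in ChREBPβ WT, a called difference between the WT groups (0.89, limma adjusted p 1.05e-04). What the remaining signal reads was not tested. All 10 adipocyte marker genes had a tested probe, and their mean log2 level was 15.97 to 16.42 on every array. Liver markers were bright in the ChREBPβ line, with a mean over 10 genes of 13.37 to 16.68 in WT and 11.91 to 16.19 in KO. Their mean was 8.32 to 13.94 in total ChREBP WT and 8.07 to 9.20 in total ChREBP KO. The groups therefore differed in liver transcripts, and the called differences are also given from a fit that adds the liver marker mean of each array as a covariate. Total ChREBP WT replicate 2 stood apart, with a summed log2 level of epididymis markers of 15.61 against 7.46 to 10.25 on the other 6 arrays of its group and the highest liver marker mean of that group. It was also the highest array of its group for Hspa5, Dnajb9 and Ddit3 and the lowest for Chac1, Trib3 and Xbp1. Without it the total ChREBP differences were 0.76 for Asns, 1.02 for Sesn2 and -1.06 for Chac1, all still called by limma.

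In total ChREBP KO, 3 of the 10 genes changed, and not all in 1 direction. Sesn2 and Asns rose and Chac1 fell, by 1.98-fold, 1.72-fold and 1.98-fold, while the 3 endoplasmic reticulum genes Hspa5, Xbp1 and Dnajb9 did not pass the test. Over all genes, 9.36% were called in this comparison (5.74% higher and 3.62% lower), and the median log2 difference was 0.08 over the 10 genes and 0.02 over all genes. In ChREBPβ KO, 0 of the 10 genes were called by limma, beside 0.00772% of all genes, and 4 of the 10 had an unadjusted limma p under 0.05, beside 9.71% of all genes. The plot of all members by array shows each value behind these counts.

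**Figure D1:**
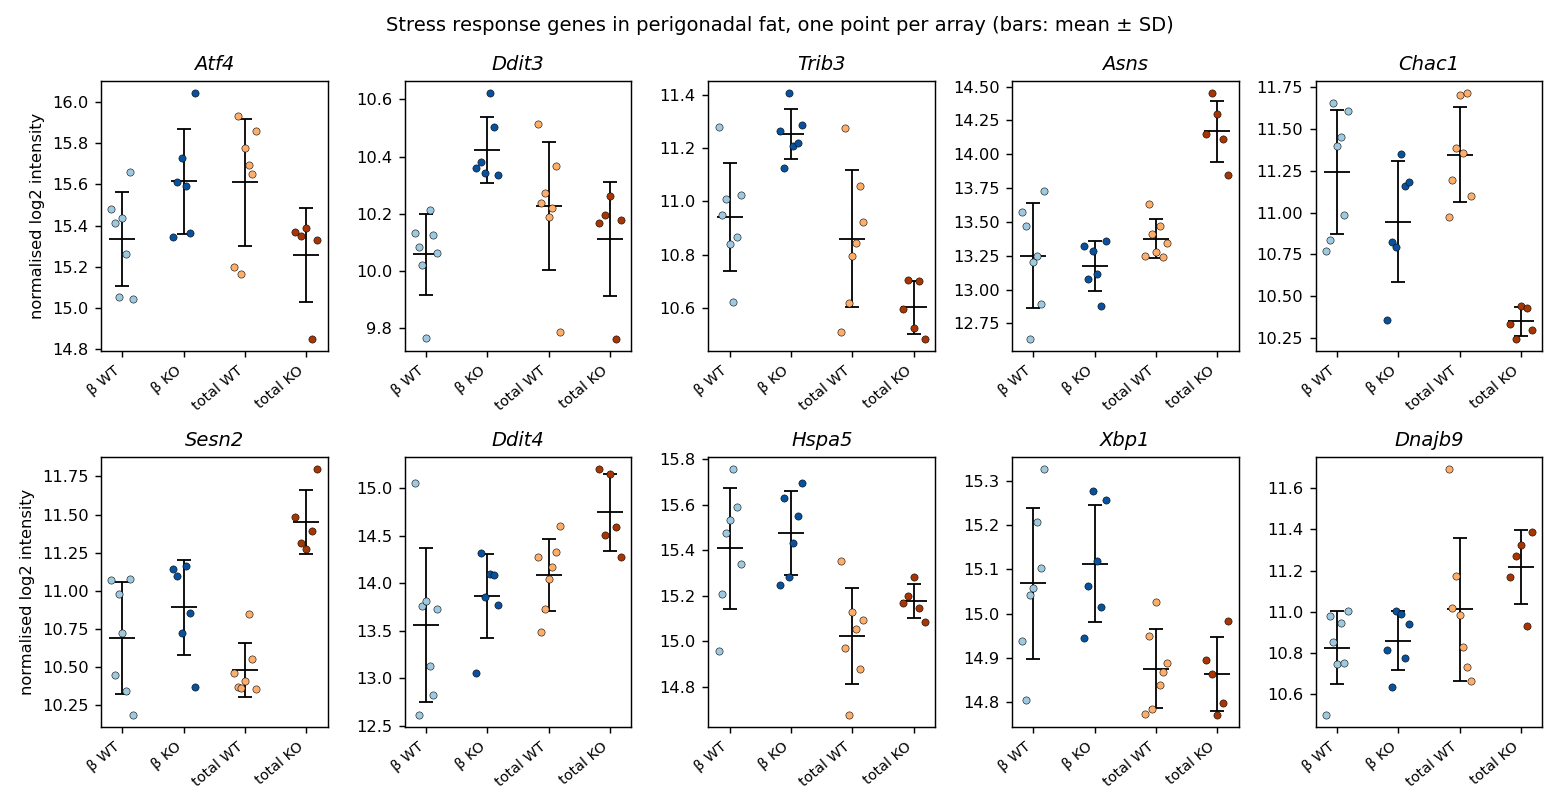
Normalised log2 intensity of the 10 genes on each of 25 arrays, in ChREBPβ WT (n = 7), ChREBPβ KO (n = 6), total ChREBP WT (n = 7) and total ChREBP KO (n = 5), with bars for mean ± SD and a separate axis range for each gene. The 5 total ChREBP KO arrays lie above all arrays of their WT for Asns and Sesn2 and below all of them for Chac1.

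Asns encodes asparagine synthetase, which makes asparagine from aspartate and glutamine and is a classical target of ATF4. On the 5 total ChREBP KO arrays its log2 level was 14.15, 14.45, 14.29, 14.12 and 13.84, against a lowest value of 13.24, a median of 13.35 and a highest of 13.63 in total ChREBP WT. Every knockout array lay above every WT array. The difference was 0.79 (SE 0.15, 95% interval 0.47 to 1.10, limma adjusted p 0.00139), and it was 0.49 to 0.94 within the 4 wash batches. A second Asns probe gave 0.73 (SE 0.19, adjusted p 0.0172), again with no overlap of the groups. In the ChREBPβ line Asns ran from 12.64 to 13.73 with a median of 13.25 in WT and from 12.88 to 13.36 with a median of 13.20 in KO, so that the KO arrays lay inside the WT range. The difference there was -0.09 (95% interval -0.39 to 0.21, adjusted p 0.909). The group means rose in the order ChREBPβ KO (13.17 ± 0.18), ChREBPβ WT (13.25 ± 0.39), total ChREBP WT (13.38 ± 0.14) and total ChREBP KO (14.17 ± 0.23, each mean ± SD), and the step to the last group alone exceeded the spread. With the liver marker covariate the difference in the total ChREBP line was 0.73 (limma adjusted p 0.0143).

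Sesn2 encodes sestrin 2, a leucine-binding inhibitor of mTORC1 that is induced under stress. Its log2 level was 11.49, 11.31, 11.28, 11.39 and 11.80 on the total ChREBP KO arrays and 10.36, 10.41 and 10.85 (lowest, median and highest) in total ChREBP WT. The groups did not overlap. The difference was 0.98 (SE 0.12, 95% interval 0.74 to 1.23, limma adjusted p 4.43e-06) and 0.91 to 1.10 within wash batches, and it was 0.94 with the liver marker covariate (limma adjusted p 1.10e-04). In the ChREBPβ line it ran from 10.19 to 11.08 with a median of 10.73 in WT and from 10.37 to 11.16 with a median of 10.98 in KO, and 3 of 6 KO arrays lay above all WT arrays. That difference of 0.25 (SE 0.11) had an adjusted p of 0.501 and an unadjusted limma p of 0.035. The scanner software did not mark the Sesn2 spot as found on 6 of 25 arrays, although it was bright on all of them, and the spot passed the filter through ChREBPβ WT (6 of 7 arrays) and total ChREBP KO (4 of 5 arrays). Without any filter the difference was 0.99 (limma adjusted p 4.83e-06).

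Chac1 encodes a glutathione-degrading enzyme that acts downstream of ATF4 and CHOP. On the total ChREBP KO arrays its log2 level was 10.34, 10.25, 10.44, 10.43 and 10.30, all below the lowest of the 7 total ChREBP WT arrays, which ran from 10.97 to 11.71 with a median of 11.36. The difference was -0.98 (SE 0.18, 95% interval -1.36 to -0.61, limma adjusted p 9.26e-04), and it was -1.23 to -0.70 within wash batches. The knockout arrays were also closer together than those of any other group, with an SD of 0.08 beside 0.28 to 0.37. In the ChREBPβ line Chac1 ran from 10.77 to 11.65 with a median of 11.40 in WT and from 10.36 to 11.35 with a median of 10.99 in KO. The groups overlapped, and the difference of -0.30 (SE 0.17) had an adjusted p of 0.632. With the liver marker covariate the difference in the total ChREBP line was -0.98 (limma adjusted p 0.00706). Of the 10 genes, 3 had groups that did not overlap in the total ChREBP line, as did 7.58% of all genes.

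The promoter windows of the 3 genes that changed, and of Hspa5 as the main target of the unfolded protein response, are shown so that the elements through which these pathways are known to act can be read. Each line gives the 250 bases before the RefSeq transcription start on mouse build GRCm38.p6, in the direction of the gene, with capitals for matches to the motifs searched. The amino acid response element (TGATGNAA) marks Asns 16 to 23 bases before the start and, on the other strand, Chac1 186 to 193 bases before it, and the endoplasmic reticulum stress element, a CCAAT box and a CCACG box at a fixed spacing, marks Hspa5 47 to 65 bases before the start.
Asns (chr6:7693210-7693459, minus strand): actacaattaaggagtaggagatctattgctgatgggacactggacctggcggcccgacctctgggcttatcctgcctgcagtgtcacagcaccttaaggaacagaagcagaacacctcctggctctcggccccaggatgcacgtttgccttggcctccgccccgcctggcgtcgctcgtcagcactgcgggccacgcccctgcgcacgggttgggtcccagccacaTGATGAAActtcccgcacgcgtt
Chac1 (chr2:119350992-119351241, plus strand): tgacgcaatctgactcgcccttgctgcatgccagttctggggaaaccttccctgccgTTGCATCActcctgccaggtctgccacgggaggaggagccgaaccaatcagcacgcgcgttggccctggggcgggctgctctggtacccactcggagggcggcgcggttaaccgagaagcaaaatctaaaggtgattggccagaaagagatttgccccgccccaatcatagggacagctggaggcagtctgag
Sesn2 (chr4:132510457-132510706, minus strand): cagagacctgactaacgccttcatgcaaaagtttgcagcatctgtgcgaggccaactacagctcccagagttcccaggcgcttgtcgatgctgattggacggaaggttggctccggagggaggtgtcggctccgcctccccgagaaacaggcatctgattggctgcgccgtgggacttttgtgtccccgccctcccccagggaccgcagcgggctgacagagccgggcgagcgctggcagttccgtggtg
Hspa5 (chr2:34771840-34772089, plus strand): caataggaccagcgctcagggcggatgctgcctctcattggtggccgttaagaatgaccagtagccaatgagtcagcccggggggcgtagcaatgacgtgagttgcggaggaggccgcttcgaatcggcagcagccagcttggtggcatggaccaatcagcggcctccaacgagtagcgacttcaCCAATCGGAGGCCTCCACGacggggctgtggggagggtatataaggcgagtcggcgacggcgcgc

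RefSeq gave 1 promoter window for each of the 10 genes, and 5 motifs were searched on both strands in windows that reach 50 bases past the start. The amino acid response element was found in 3 of the 10 windows (Asns, Chac1 and, 14 to 21 bases after the start, Trib3) and in 3.97% of 32851 promoters. The stress element of Hspa5 was in 0.119% of them. The unfolded protein response element (TGACGTGG) was in 0 of the 10 windows and 0.676% of all, and the carbohydrate response element that ChREBP is known to bind, searched as paired E-box-like boxes, in 0 of the 10 and 0.365% of all. The shorter E-box (CACGTG), which the carbohydrate element can contain and which shares letters with the unfolded protein response element, was in the window of Dnajb9 and in 7.15% of all. Asns and Chac1 both hold the amino acid element and changed in opposite directions in total ChREBP KO, while the Sesn2 window holds none of the 5. These matches describe letters in the windows and not binding.

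Atf4, the transcription factor of the response, ran from 15.16 to 15.93 with a median of 15.69 in total ChREBP WT, against 15.37, 15.35, 15.39, 14.85 and 15.33 in total ChREBP KO. The groups overlapped, since 2 of 7 WT arrays lay below 4 of 5 knockout arrays, and the difference of -0.34 (SE 0.14) did not pass the test (limma adjusted p 0.173). A second, dimmer Atf4 probe fell by 0.54 (difference -0.54, SE 0.15, limma adjusted p 0.0263), with 5 of 5 knockout arrays below all WT arrays. In the ChREBPβ line the brighter probe ran from 15.05 to 15.66 with a median of 15.41 in WT and from 15.35 to 16.04 with a median of 15.60 in KO. All 6 KO arrays lay above the WT mean, and the difference of 0.30 (SE 0.14) had an adjusted p of 0.523. The second probe gave 0.14 there (adjusted p 0.841).

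Ddit3 encodes CHOP, the factor tied to death of cells under lasting stress. Its brighter probe ran from 9.77 to 10.21 with a median of 10.08 in ChREBPβ WT and from 10.34 to 10.62 with a median of 10.37 in ChREBPβ KO. The groups did not overlap, as was the case for 1 of the 10 genes and for 0.0695% of all genes in this comparison. The difference of 0.38 (SE 0.09, 95% interval 0.18 to 0.58) was 0.28 to 0.49 within wash batches, and its limma adjusted p was 0.246 (unadjusted p 6.36e-04), so that it was not called. With the liver marker covariate it was 0.43 (limma adjusted p 0.401). The liver markers had a median log2 difference of -1.25 in this comparison and the kidney tubule markers of -1.12, with 0 of 10 and 0 of 5 called (1 and 1 with an unadjusted p under 0.05). In the total ChREBP line this probe ran from 9.79 to 10.51 with a median of 10.24 in WT and read 10.17, 10.19, 10.26, 9.76 and 10.18 in KO, a difference of -0.10 (SE 0.10, adjusted p 0.686). The second Ddit3 probe went the other way there. It ran from 8.66 to 9.04 in total ChREBP WT and from 8.99 to 9.97 in KO, with 4 of 5 KO arrays above all WT arrays, and it rose by 0.69 (SE 0.13, limma adjusted p 0.00122). The array design assigns the brighter probe to the reference mRNA of Ddit3 and the second to another, Ensembl, transcript. The brighter probe was not marked as found on 7 of 25 arrays. It was found on 2 of 5 total ChREBP KO and 5 of 7 total ChREBP WT arrays, and passed the filter through ChREBPβ WT (6 of 7) and ChREBPβ KO (5 of 6). The second probe was found on 25 of 25 arrays. By its 2 probes, Ddit3 had no single direction in total ChREBP KO.

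**Figure D2:**
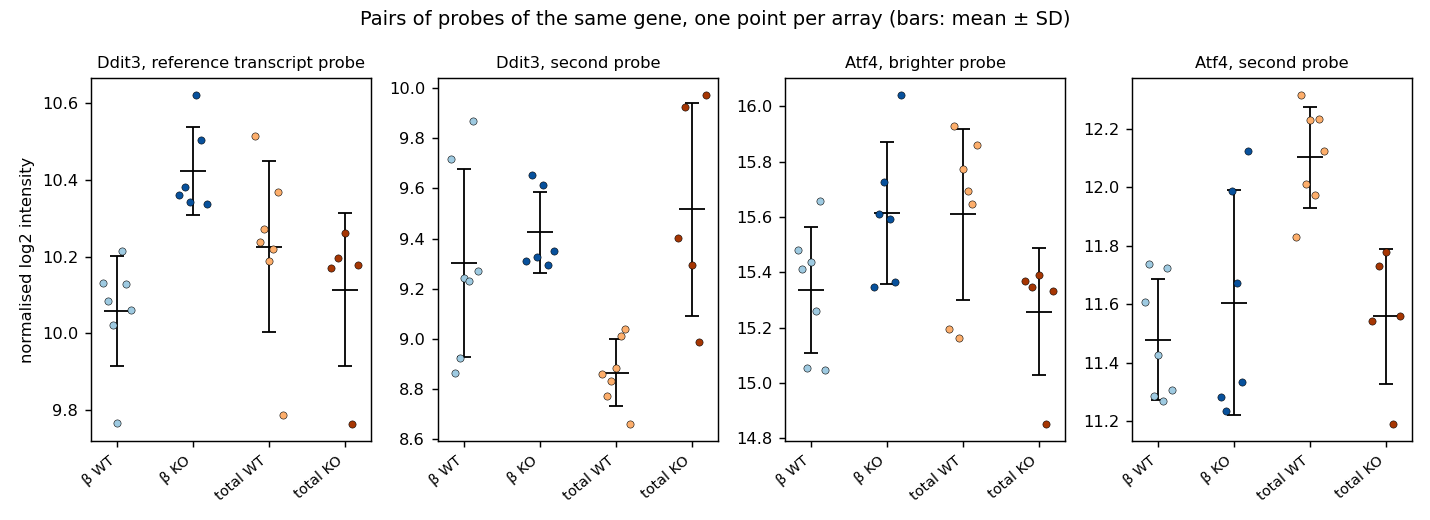
Normalised log2 intensity on each array of the 2 probes of Ddit3 and the 2 probes of Atf4, by group, with bars for mean ± SD and a separate axis range for each probe. In total ChREBP KO the second Ddit3 probe was higher than in WT (0.69) while the reference transcript probe was not (-0.10), and both Atf4 probes had negative differences (-0.34 and -0.54).

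Trib3 encodes a pseudokinase that ATF4 and CHOP induce and that restrains insulin signalling through AKT. It ran from 10.51 to 11.27 with a median of 10.84 in total ChREBP WT and read 10.60, 10.70, 10.52, 10.70 and 10.48 in KO. All 5 KO arrays were below the WT mean, but the groups overlapped, and the difference of -0.26 (SE 0.11) had an adjusted p of 0.166. In the ChREBPβ line it ran from 10.62 to 11.28 with a median of 10.95 in WT and from 11.13 to 11.41 with a median of 11.24 in KO. All 6 KO arrays were above the WT mean, and the difference of 0.32 (SE 0.11) had an adjusted p of 0.372.

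Ddit4 encodes REDD1, a stress-induced inhibitor of mTORC1 that also responds to glucocorticoids and fasting. It had the largest SD of the 10 genes in each group (0.38 to 0.81), and it ran from 12.62 to 15.05 with a median of 13.73 in ChREBPβ WT and from 13.05 to 14.31 with a median of 13.97 in ChREBPβ KO. In total ChREBP WT it ran from 13.48 to 14.60 with a median of 14.17, against 15.20, 14.51, 15.14, 14.59 and 14.28 in KO. The difference of 0.71 (SE 0.32, 95% interval 0.05 to 1.37) was nearly as large as that of Asns but had an adjusted p of 0.203. It ranged from 0.03 to 1.66 within wash batches, and it was 0.40 with the liver marker covariate.

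The 3 genes of the endoplasmic reticulum arm were near their WT levels in both knockouts. Hspa5, which encodes BiP, ran from 14.68 to 15.35 with a median of 15.05 in total ChREBP WT and read 15.17, 15.20, 15.28, 15.15 and 15.08 in KO. The difference was 0.17 (95% interval -0.07 to 0.40, limma adjusted p 0.459), and 2 other Hspa5 probes gave 0.01 and 0.02. Xbp1, the transcription factor of the IRE1 branch, gave 0.00 (95% interval -0.16 to 0.16) with its brightest probe and -0.19 and -0.22 with the other 2, with adjusted p-values of 0.991, 0.467 and 0.425. Dnajb9, a co-chaperone of BiP that XBP1 induces, gave 0.20 (95% interval -0.08 to 0.49) and 0.10 with its 2 probes. In the ChREBPβ line the brightest probes gave 0.05 for Hspa5 (95% interval -0.17 to 0.27), 0.04 for Xbp1 (-0.11 to 0.20) and 0.02 for Dnajb9 (-0.25 to 0.29). For these 3 genes the intervals exclude a doubling or a halving in either knockout. With the liver marker covariate the total ChREBP differences were 0.42 for Dnajb9 (limma adjusted p 0.0666) and 0.28 for Hspa5 (0.217), and the ChREBPβ differences 0.13 and 0.11. Without total ChREBP WT replicate 2, Dnajb9 was 0.31 (limma adjusted p 0.0958).

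The difference between the effects of the 2 deletions was called for Asns, Sesn2 and Trib3, that is for 3 of the 10 genes and 3.49% of all genes (1.34% higher and 2.15% lower). The effect of total deletion exceeded that of ChREBPβ deletion by 0.88 for Asns (SE 0.21, limma adjusted p 0.0178) and by 0.74 for Sesn2 (SE 0.16, adjusted p 0.00933). For Trib3 it was lower, with a difference of effects of -0.58 (SE 0.15, adjusted p 0.0358). The Trib3 call was close to the threshold, since the adjusted p was 0.0161 to 0.0862 when each array was left out in turn and 14 of the 25 fits did not call it. The Sesn2 call held in 25 of 25 such fits but in 8 of 10 alternatives, with an adjusted p of 0.0529 without the wash batch term and 0.0994 with the replicate block. Atf4 was called in 1 of the 25 fits, that without total ChREBP WT replicate 2 (-0.70, limma adjusted p 0.0433). Chac1 had a difference of effects of -0.69 (SE 0.25) with an adjusted p of 0.178, Atf4 of -0.63 (0.095) and Ddit3 of -0.48 (0.0635), so that the fall of Chac1 in total ChREBP KO was not shown to differ from the change in ChREBPβ KO. With the liver marker covariate, the values were 0.85 for Asns (adjusted p 0.0269), 0.72 for Sesn2 (0.0157) and -0.61 for Trib3 (0.0318), all by limma.

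**Figure D3:**
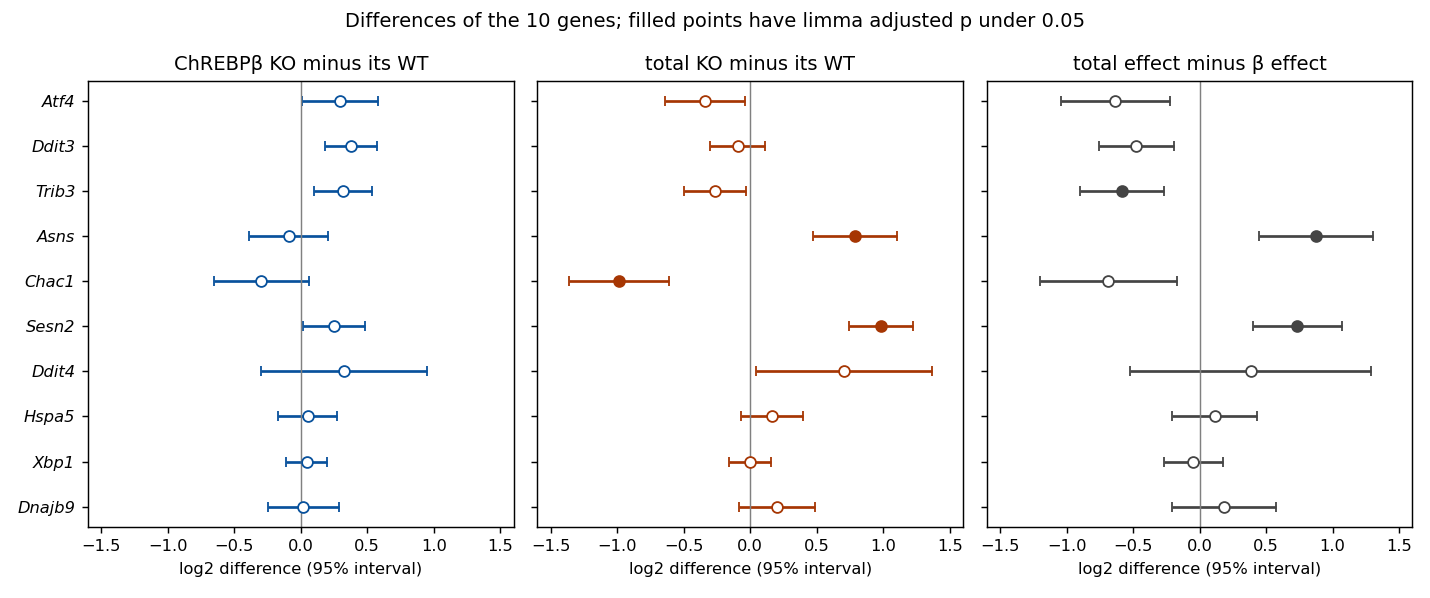
Log2 differences of the 10 genes with 95% intervals for ChREBPβ KO minus its WT, total ChREBP KO minus its WT, and the second effect minus the first, with filled points where the limma adjusted p was under 0.05. Filled points are absent in the ChREBPβ comparison, stand at Asns (0.79), Chac1 (-0.98) and Sesn2 (0.98) in the total ChREBP comparison, and at Trib3 (-0.58), Asns (0.88) and Sesn2 (0.74) for the difference.

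Around the 10 genes, 81 genes of the same pathways were tested in 9 lists. In total ChREBP KO 11 of 81 were called, beside 9.36% of all genes, of which 5 rose and 6 fell, with a median of 0.00. In ChREBPβ KO limma called 0 of 81, and 12 had an unadjusted p under 0.05, beside 9.71% of all genes. No list had more than 2 genes called in total ChREBP KO. Of 12 stress sensors and regulators of eIF2α, 1 fell in total ChREBP KO, Ppp1r15a, which encodes GADD34, the phosphatase subunit that ends the response (-0.70, SE 0.10, limma adjusted p 2.87e-05). Of 8 genes of serine, proline and one-carbon synthesis, Psat1 rose (0.64) and Psph, which encodes the next enzyme of the serine pathway, fell (-0.55). None of 7 amino acid transporters was called in either knockout by limma, and the unadjusted p was under 0.05 for 0 of them. Of 12 cytosolic tRNA synthetases, Yars (-0.30) and Lars (-0.17) fell. Of 5 partner transcription factors, Nupr1 rose (0.39).

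Of 6 secreted stress signals and other ATF4 targets, Fgf21, which encodes a stress hormone that ChREBP is also known to activate directly, fell by 3.11 on the log2 scale (SE 0.37, limma adjusted p 5.62e-06), and Vldlr, the very low density lipoprotein receptor, rose (0.66). None of 16 chaperones and folding enzymes was called in total ChREBP KO by limma (the unadjusted p was under 0.05 for 1 of them), and their median was -0.03. Of 9 genes of endoplasmic reticulum associated degradation, Edem1 rose (0.62) and Derl1 fell (-0.87). The unadjusted limma p was under 0.05 for 6 of the 9, and the list median was 0.19, beside 0.02 over all genes. The share of all genes with an unadjusted p under 0.05 was not counted for the total ChREBP comparison. The difference of effects was called for 6 of the 81 genes, Derl1, Edem1, Fgf21, Psat1, Psph and Ppp1r15a.

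**Figure D4:**
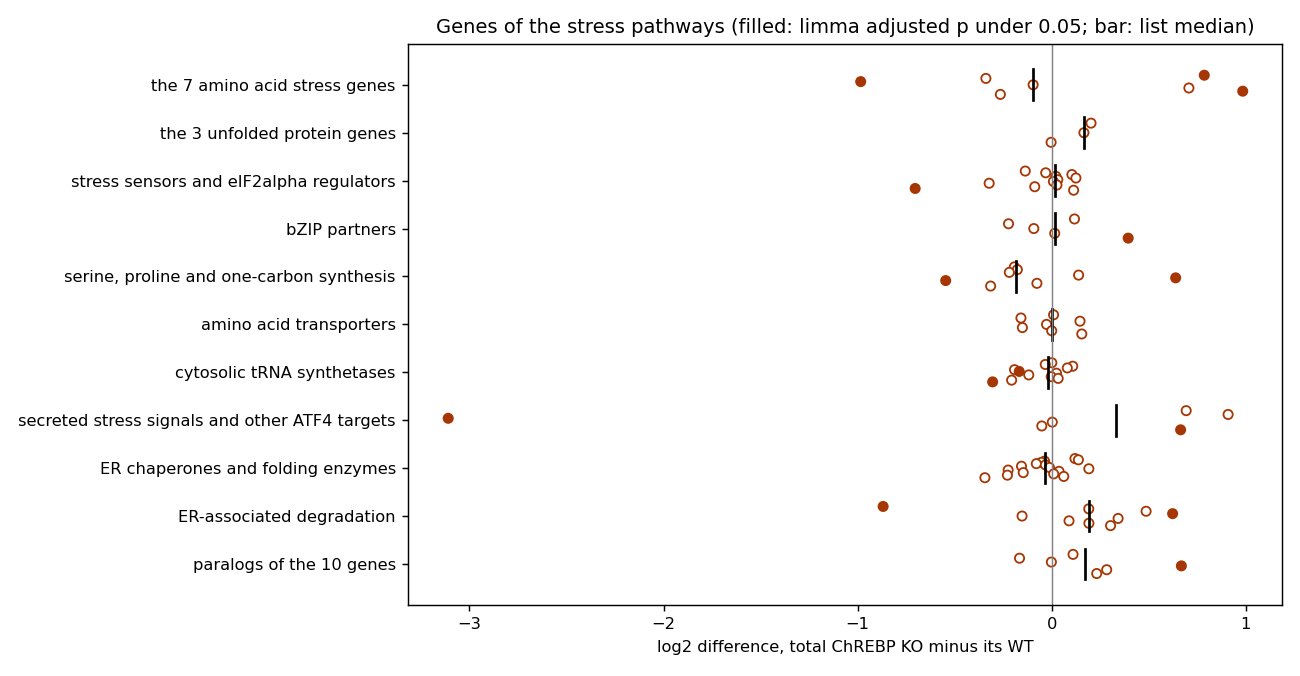
Log2 differences between total ChREBP KO and its WT for the 10 genes and the 81 genes of 9 related lists (6 paralogs of the 10 genes among them), one point per gene, with filled points where the limma adjusted p was under 0.05 and a vertical bar at the list median. Points lie on both sides of 0 in each list, and Fgf21 (-3.11) lies farthest from 0.

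Some markers of liver, B and plasma cells and adipocytes were called in the total ChREBP comparison, as were 9.36% of all genes. Of 10 liver markers, 2 were lower and 1 higher in total ChREBP KO and their median log2 difference was -2.45. The unadjusted limma p was under 0.05 for 9 of the 10 liver markers. Their summed log2 level went the other way, from 17.96 to 18.28 (median 18.11) on the knockout arrays and from 16.76 to 18.48 (median 17.50) on the WT arrays. Cyp2e1 was the marker that was higher (0.93). The sum follows the brightest markers, since the mean over the 10 genes was 8.07 to 9.20 on the same knockout arrays. Of 9 B and plasma cell markers, 1 was higher (Jchain, 1.82), while the list median was -0.03. Of 10 adipocyte markers, 2 were higher (Plin1, 0.41, and Cidec, 0.40), with a median of 0.13. The summed log2 level of the adipocyte markers was 20.90 to 20.94 in total ChREBP KO and 20.68 to 20.81 in its WT. The part of these cells in the results was not tested beyond the liver covariate, which left the calls of Asns, Sesn2 and Chac1 in place. In bulk tissue, fewer cells of a type and less RNA per cell cannot be told apart.

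The WT mice of the 2 lines were compared with each other to see what the line alone carried. Hspa5 was lower in total ChREBP WT (14.68 to 15.35, median 15.05) than in ChREBPβ WT (14.96 to 15.76, median 15.48). The groups overlapped, 7 of 7 total ChREBP WT arrays lay below the ChREBPβ WT mean, and the difference was -0.39 (SE 0.10, limma adjusted p 0.0089), with -0.60 to -0.24 within wash batches. The other Hspa5 probes gave -0.28 (adjusted p 0.0886) and -0.21 (0.160). Hspa5 was the only one of the 10 genes called by its brightest probe, beside 22.2% of all genes (13.4% higher and 8.71% lower), and the second Atf4 probe (0.62) and the second Ddit3 probe (-0.44) also differed. None of the 10 brightest probes had groups that did not overlap, beside 5.53% of all genes.

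Several chaperones differed in the same direction as Hspa5 between the WT groups. Of 16 chaperones and folding enzymes 7 were lower and 0 higher in total ChREBP WT, with a median of -0.25 beside 0.04 over all genes, among them Ero1b (-0.84), Sdf2l1 (-0.80), Pdia6 (-0.44) and Hsp90b1 (-0.40). Of the 9 degradation genes, 5 were lower, among them Herpud1 (-0.50), Edem1 (-0.39) and Syvn1 (-0.35), and 1, Derl1, was higher (0.53). On the amino acid side 4 of 12 tRNA synthetases (Iars, 0.34, Yars, 0.32, Gars, 0.22, and Nars, 0.16), 2 of 7 transporters (Slc38a2, 0.30, and Slc3a2, 0.29) and 2 of 5 partner factors (Atf5 and Cebpg, 0.30 and 0.29) were higher, with Nupr1 lower (-0.32). Of the other lists, 2 of 12 stress sensors and regulators were higher (Ppp1r15a, 0.39, and Mbtps2, 0.33), and of the serine, proline and one-carbon genes Psph was higher (0.48) and Shmt2 lower (-0.60). Fgf21 was higher (1.63), and Cbs (-3.39) and Cth (-1.35), both highly expressed in liver, were lower.

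Some markers of liver, plasma cells, kidney and pancreas were called in the same comparison, beside 22.2% of all genes (8.71% lower). Of 10 liver markers 9 were lower in total ChREBP WT, with a median of -5.09, and of 9 B and plasma cell markers 6 were lower, with a median of -0.61. Of 5 kidney tubule markers 3 were lower, with a median of -0.96, and of 7 pancreas markers 2 were lower, with a median of -0.18. With the liver marker covariate the Hspa5 difference was -0.14 (SE 0.16, limma adjusted p 0.642) and was no longer called, Dnajb9 was called instead (0.63, SE 0.17, adjusted p 0.029), and 9 of the 81 pathway genes were called in place of 31. The share of all genes called in that fit was not counted. The line of the mice, the liver transcripts and the pathway genes cannot be told apart in this comparison, because the WT groups differed in all of them.

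Within the groups, the genes also differed in how they followed the liver markers. After removal of group and wash batch means, Pearson's r with the liver marker mean over 25 arrays was 0.61 for Dnajb9, 0.42 for Hspa5, 0.37 for Ddit3 and -0.36 for Ddit4, and it lay between -0.17 and 0.02 for Atf4, Asns, Chac1, Trib3, Sesn2 and Xbp1. Genes with small values for liver had larger ones for other marker lists. With mesothelium markers r was -0.53 for Atf4, -0.41 for Asns, -0.37 for Trib3 and 0.37 for Sesn2. With macrophage markers it was -0.48 for Atf4, -0.48 for Trib3 and 0.35 for Chac1, and with B and plasma cell markers -0.39 for Sesn2. With adipocyte markers these genes and Xbp1 lay between -0.17 and 0.25. These values describe arrays that share tissue and normalisation.

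**Figure D5:**
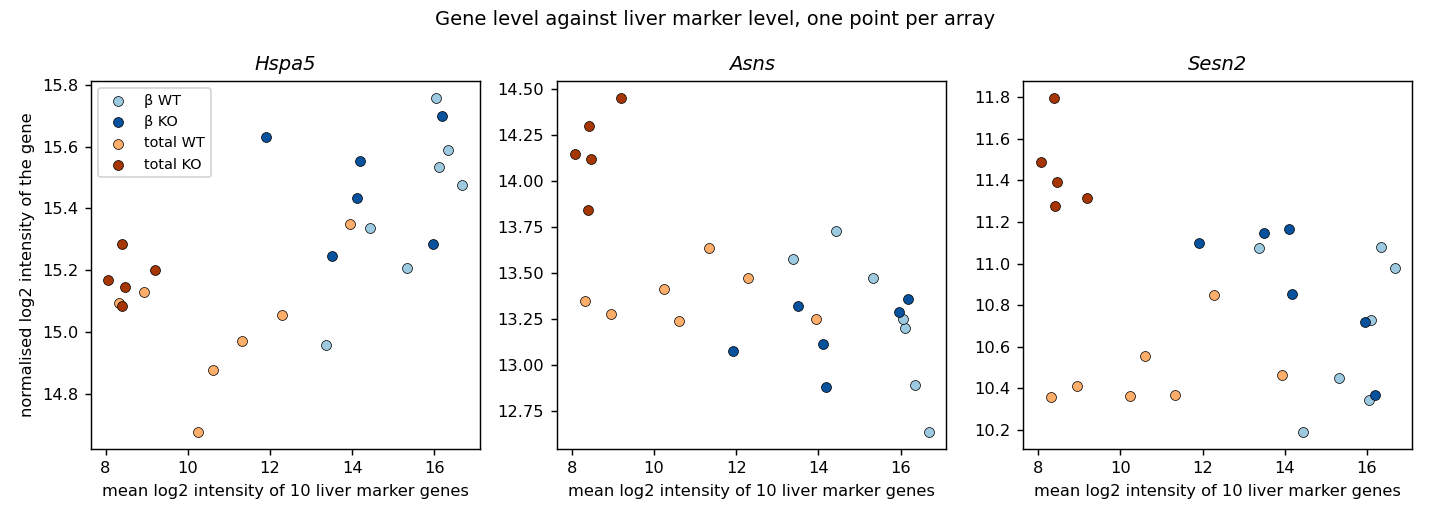
Normalised log2 intensity of Hspa5, Asns and Sesn2 on each of 25 arrays against the mean log2 intensity of 10 liver marker genes on the same array, with colour for the group. The liver marker mean is 8.07 to 9.20 in total ChREBP KO and reaches 16.68 in ChREBPβ WT, and the 5 total ChREBP KO arrays have the highest Asns and Sesn2 levels.

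The genes whose array-to-array pattern was most like that of Hspa5, with group and wash batch means removed, were Hsp90b1 (r = 0.94 over 25 arrays), Pdia6 (0.87), Creld2 (0.82), Ddi2 (0.81) and Mydgf (0.81), of which Hsp90b1, Pdia6 and Creld2 are on the chaperone list. For Asns they were Plpp6 (0.88), Sh3glb2 (0.86), Arhgap36 (0.84), Sox6os (0.84) and Porcn (0.84), none of which is on a list used here. Asns itself ran against Sesn2 (-0.55) and Hspa5 (-0.51) within groups, although Asns and Sesn2 both rose in total ChREBP KO. These are descriptions of 25 arrays, and the genes of an array share its tissue piece and its normalisation.

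The probes of the genes that changed lie, on mouse build mm9, at chromosome 6, 7625171 to 7625228 for Asns, chromosome 4, 132048858 to 132048917 for Sesn2 and chromosome 2, 119179990 to 119180049 for Chac1. The Hspa5 probe lies at chromosome 2, 34631913 to 34631972. The exon or untranslated part that a probe reads is not stated, since the build was used here without gene models.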

How the data were processed

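RNA of pgWAT was labelled with Cy3 and hybridised to single-colour Agilent mouse arrays. The authors scanned the slides with Agilent Feature Extraction, and deposited median spot intensities (per the file headers) with local backgrounds and spot flags. The authors also deposited a series table of log2 values, which was used as an alternative. Its values of the 18 probes differed from those computed here by at most 0.121, and their log2 differences by at most 0.054. Spots were kept where the software called them found, significant and well above background on 21 of 25 arrays or on at least 6 arrays of a WT group, 5 of ChREBPβ KO or 4 of total ChREBP KO. Log2 median intensities were quantile normalised, and replicated probes were merged by their median. Flagged outlier spots were treated as missing (24 values of the tested matrix). Gene names of probes came from RefSeq accessions or symbols where they matched.

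One model with 4 group terms and a fixed wash batch term was fitted to 25 arrays with limma 3.58.1 (R 4.3.3). P-values were adjusted by Benjamini-Hochberg over 39619 probes, and 0.05 was the threshold. P-values set each difference against the spread between arrays, and the number of arrays limits precision. On simulated data with 200 probes changed by 1 log2 unit, 88% were called in the ChREBPβ, 92.5% in the total ChREBP and 89.5% in the WT comparison. Of the calls, 4.35%, 3.65% and 4.79% were false. The simulated noise was independent between probes, without wash batch or tissue differences. Changes smaller than 1 log2 unit were not simulated, so these shares do not apply to them.

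The genes and lists were chosen with earlier results of these data known. All 10 genes are named, and of each list the called genes with the largest differences, at most 4. The 5 genes most alike were taken for Asns and Hspa5. Alternatives were background correction, scaling, the series table, filters, batch and slide terms, array weights, the replicate block, the mean over probes, leaving out each array, and a liver marker covariate. Marker lists covered adipocyte, macrophage, B and plasma cell, mesothelium, epididymis, liver, kidney tubule and pancreas genes. Same-numbered arrays did not pair the samples (r of -0.43 to 0.54, over 0.1 in 9 of 29 pairs).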

Additional observations from a re-analysis of the deposited data

Results flagged for a closer look

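The effects of the 2 deletions differed, by the test of the difference itself, for Asns (0.88 on the log2 scale, total minus ChREBPβ), Sesn2 (0.74) and Trib3 (-0.58). The Asns call held in 11 of 11 alternatives, that of Sesn2 in 8 of 10 (adjusted p up to 0.0994) and that of Trib3 in 9 of 11 (up to 0.0531), and Trib3 was not called in 14 of 25 fits that left out 1 array. Asns and Sesn2 were higher in 5 of 5 total ChREBP KO arrays than in any array of their WT, while Trib3 was below the WT mean in 5 of 5 total ChREBP KO arrays and above it in 6 of 6 ChREBPβ KO arrays.

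In 4 of 40 sets of 1 gene in 1 group, a single array stood far from the others of its group, and chance alone sets apart about 1 array in 20 groups. Total ChREBP KO replicate 4 was the lowest for Atf4 (14.85, next 15.33) and for Ddit3 (9.76, next 10.17). ChREBPβ WT replicate 4 was the lowest for Ddit3 (9.77, next 10.02), and total ChREBP WT replicate 6 was the highest for Sesn2 (10.85, next 10.55). Leaving out each array in turn, Sesn2 in the total ChREBP line stayed between 0.90 and 1.02, Atf4 there between -0.41 and -0.26, and Ddit3 in the ChREBPβ line between 0.34 and 0.41. What set these arrays apart was not tested.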

How the results depend on the processing

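Over 11 or 12 alternatives and 25 fits that each left out 1 array, Asns, Chac1 and, where it was tested, Sesn2 kept their direction and their call in the total ChREBP comparison, and Asns kept those of the difference of effects. In the fit of spots found on every array, Sesn2 and Ddit3 had no value. The 2-group fit was not run for the difference of effects. The liver covariate was chosen after seeing the data. The share of all genes called was not counted under the alternatives, so the counts below have no such share beside them. The causes of the changes below were not tested.

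With array weights, 5 of the 10 genes were called in the total ChREBP comparison (Trib3 and Ddit4 added), 17 pathway genes there, 11 for the difference of effects, and 2 of the 10 genes between the WT groups. Between the WT groups 2 of the 10 genes were also called with normexp correction, with the mean over probes and with spots found on every array. With the liver covariate, 10 pathway genes were called for the difference of effects and 9 between the WT groups.

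The replicate block, whose numbers did not pair the samples, left 1 of the 10 genes (Asns) and 3 pathway genes called for the difference of effects, and 2 of the 10 genes between the WT groups. Sesn2 was then 0.62 (adjusted p 0.0994) and Trib3 -0.71 (0.0531). Under this block Chac1 was -0.016 between the WT groups, Dnajb9 -0.072 and Hspa5 -0.026 in the ChREBPβ line, and Xbp1 0.0028 for the difference of effects and 0.029 in the total ChREBP line.

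Without wash batch, Sesn2 was 0.77 for the difference of effects (adjusted p 0.0529), and without a filter Trib3 was -0.58 (0.0511). With the processed signal, Hspa5 between the WT groups was -0.18 (0.209), and Xbp1 in the ChREBPβ line was -0.022. With the mean over probes, Ddit3 was 0.30 in the total ChREBP line, 0.020 for the difference of effects and -0.13 between the WT groups, and Hspa5 and Xbp1 were -0.0056 and -0.084 in the ChREBPβ line. With array weights Hspa5 there was -0.0079, and Trib3 between the WT groups was 0.0012. With the liver covariate, Ddit4 was -0.10 between the WT groups and Xbp1 1.6e-04 in the total ChREBP line, where it was 0.0029 with normexp correction.

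Leaving out 1 array each, the genes called numbered 0 in the ChREBPβ comparison, 3 in the total ChREBP comparison, 2 to 4 for the difference of effects and 1 to 3 between the WT groups. Pathway genes called there numbered 0, 9 to 12, 6 to 7 and 25 to 33, and genes whose groups did not overlap 1 to 2 in the ChREBPβ line, the 2 without ChREBPβ WT replicate 1. Dnajb9 (-0.047 to 0.078) and Hspa5 (-0.0094 to 0.096) in the ChREBPβ line and Xbp1 in the total ChREBP line (-0.041 to 0.037) changed sign.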

Other observations

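Paralogs of the 10 genes had values of their own. Sesn3, another sestrin, rose in total ChREBP KO with Sesn2 (0.67, SE 0.10, limma adjusted p 8.09e-05), and between the WT groups it was lower in the total ChREBP line (-0.59), as was Sesn1 (-0.26). Of 6 paralogs tested, 1 was called in total ChREBP KO, 0 in ChREBPβ KO by limma (2 with an unadjusted p under 0.05) and 2 between the WT groups, beside 9.36%, 0.00772% (9.71% unadjusted) and 22.2% of all genes. Between the 10 genes, the highest correlation over 25 arrays with group and wash batch means removed was that of Ddit3 and Dnajb9 (r = 0.70), and the lowest that of Asns and Sesn2 (-0.55).

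Markers of other tissues were measured beside the liver genes. Of the epididymis and vas deferens list 3 of 11 genes had a tested probe, of the kidney tubule list 5 of 8, of the pancreas list 7 of 10, and of the mesothelium list 7 of 8. The 8 macrophage markers and the 7 mesothelium markers had 0 genes called by limma in any of the 4 comparisons (with an unadjusted p under 0.05 for at most 2 and 0 of them). In total ChREBP KO, Cela1 of the pancreas list was lower (-0.82), and between the WT groups Adam7 of the epididymis list was higher in total ChREBP WT (3.73), while 3 of 5 kidney tubule markers (Slc22a6, -2.02, Slc34a1, -1.53, and Calb1, -0.96) and 2 of 7 pancreas markers (Cela2a, -0.62, and Cpa1, -0.61) were lower. Over all genes, 9.36% were called in total ChREBP KO and 22.2% between the WT groups.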
